A study of Danio rerio with 8 samples.

Results

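Antigen presentation genes encode the proteins that make peptides, carry them and show them on major histocompatibility complex (MHC) molecules. The set described here holds 10 genes of the class I and class II routes, chosen by name, of 31388 genes counted. They are cd74a, cd74b, mhc2dab and ciita of the class II route, and b2m, b2ml, tap1, tapbp.1, psmb8a and psmb9a of the class I route. Each name matched 1 gene, 8 by the zebrafish name and psmb8a and psmb9a by the name without its paralogue letter (PSMB8 and PSMB9). All 10 passed the filter on low counts.

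The RNA came from brains of 6-month-old Tg(her4.1:EGFP) zebrafish, in which the her4.1 promoter drives green fluorescent protein (GFP) in radial glia, which act as neural stem cells in adult fish. Each brain received either peptide of the cytokine interleukin-4 (IL4) or phosphate-buffered saline (PBS), and 24 hours later its cells were dissociated and sorted by GFP. The 4 groups are IL4 GFP-positive, PBS GFP-positive, IL4 GFP-negative and PBS GFP-negative, with 2 libraries each, and all fish carried the reporter. The labels do not say whether a library is 1 fish or a pool, so p-values measure only the spread between these libraries, which may be technical. The series' design text names other injections, another time and 3 replicates, and the labels of the libraries were followed.

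Class I molecules show peptides from the cell's own proteins to cytotoxic T cells and are made by most nucleated cells. The peptides are cut by the proteasome, pumped into the endoplasmic reticulum by TAP and loaded onto a heavy chain that is held by beta-2-microglobulin. Class II molecules show peptides from engulfed material to helper T cells and are made mainly by professional antigen-presenting cells, which in brain are foremost microglia and macrophages. The invariant chain CD74 guards the class II groove until lysosomal cathepsins cut it away, and CIITA is the master transcriptional activator of class II genes. IL4 is known from mammals to raise class II on B cells and macrophages.

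The libraries held 19242851 to 26582271 counts. The reporter's source gene her4.1 stood at 988 and 964 CPM (gene counts brought to the same library size) in IL4 GFP-positive libraries, 1377 and 1316 in PBS GFP-positive, 10.5 and 8.92 in IL4 GFP-negative and 9.27 and 9.24 in PBS GFP-negative libraries. All 27 tested microglial markers had lower levels in GFP-positive than in GFP-negative cells after IL4 and after PBS, of which 26 and 27 passed the test. Over all genes tested 34.3% were called lower after IL4 and 39.1% after PBS. Microglial markers nonetheless had counts in every GFP-positive library, with summed levels below. In bulk samples fewer cells of a type and less RNA per cell cannot be told apart.

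On genome build GRCz10 the class II genes lie on 4 chromosomes: cd74a (ENSDARG00000009087) on chromosome 14 from 2787356 to 2801244, cd74b (ENSDARG00000036628) on chromosome 21 from 33424025 to 33429516, mhc2dab (ENSDARG00000079105) on chromosome 8 from 36434337 to 36436683, and ciita (ENSDARG00000090851) on chromosome 3 from 26778107 to 26790604. Of the class I genes, b2m (ENSDARG00000053136) spans 12794547 to 12796640 on chromosome 4, b2ml (ENSDARG00000015887) 50953262 to 50961527 on chromosome 8, and tap1 (ENSDARG00000079766) 48736637 to 48763813 on chromosome 16. Chromosome 19 holds tapbp.1 (ENSDARG00000079402, 7119769 to 7143239), psmb8a (ENSDARG00000001303, 7186913 to 7225623) and psmb9a (ENSDARG00000000656, 7201455 to 7203448). The span of psmb9a lies inside that of psmb8a on the other strand, with 0 shared exon bases. Exons of psmb8a share 352 bases with psmb13a and 300 with tap2a, and those of tapbp.1 share 739 with tapbp.2. How reads in shared or near-identical sequence were counted is not given in the sources used here, so values of these genes and of MHC paralogues carry that uncertainty.

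Levels per length (RPKM, which is CPM divided by the exon length in kilobases) show 2 tiers. In PBS GFP-negative cells the class II genes led: cd74a stood at 2180 ± 106 RPKM (SD, n = 2 here and below), cd74b at 421 ± 22.7 and mhc2dab at 353 ± 21.4, ahead of b2m at 209 ± 7.52 and b2ml at 76.8 ± 3.34. In IL4 GFP-negative cells the order was cd74a (858 ± 5.26 RPKM), cd74b (188 ± 2.90), b2m (176 ± 5.34), mhc2dab (159 ± 1.99) and b2ml (77.0 ± 2.18). The other 5 members were far lower in every group, between 0.0817 and 7.09 RPKM.

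In GFP-positive cells the light chain genes ranked near or at the top. After IL4 the order was b2m (181 ± 5.18 RPKM), b2ml (127 ± 2.42) and cd74a (92.2 ± 2.15), and after PBS it was cd74a (187 ± 1.54), b2m (158 ± 0.947) and b2ml (104 ± 8.54). The ranges of psmb9a and psmb8a overlapped in both GFP-positive groups and lay apart in both GFP-negative groups, with psmb9a higher after IL4 and psmb8a higher after PBS. The transactivator gene ciita was the lowest member in all 4 groups, from 0.0817 ± 0.0192 RPKM in PBS GFP-positive to 0.783 ± 0.0580 in PBS GFP-negative cells.

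**Figure D1:**
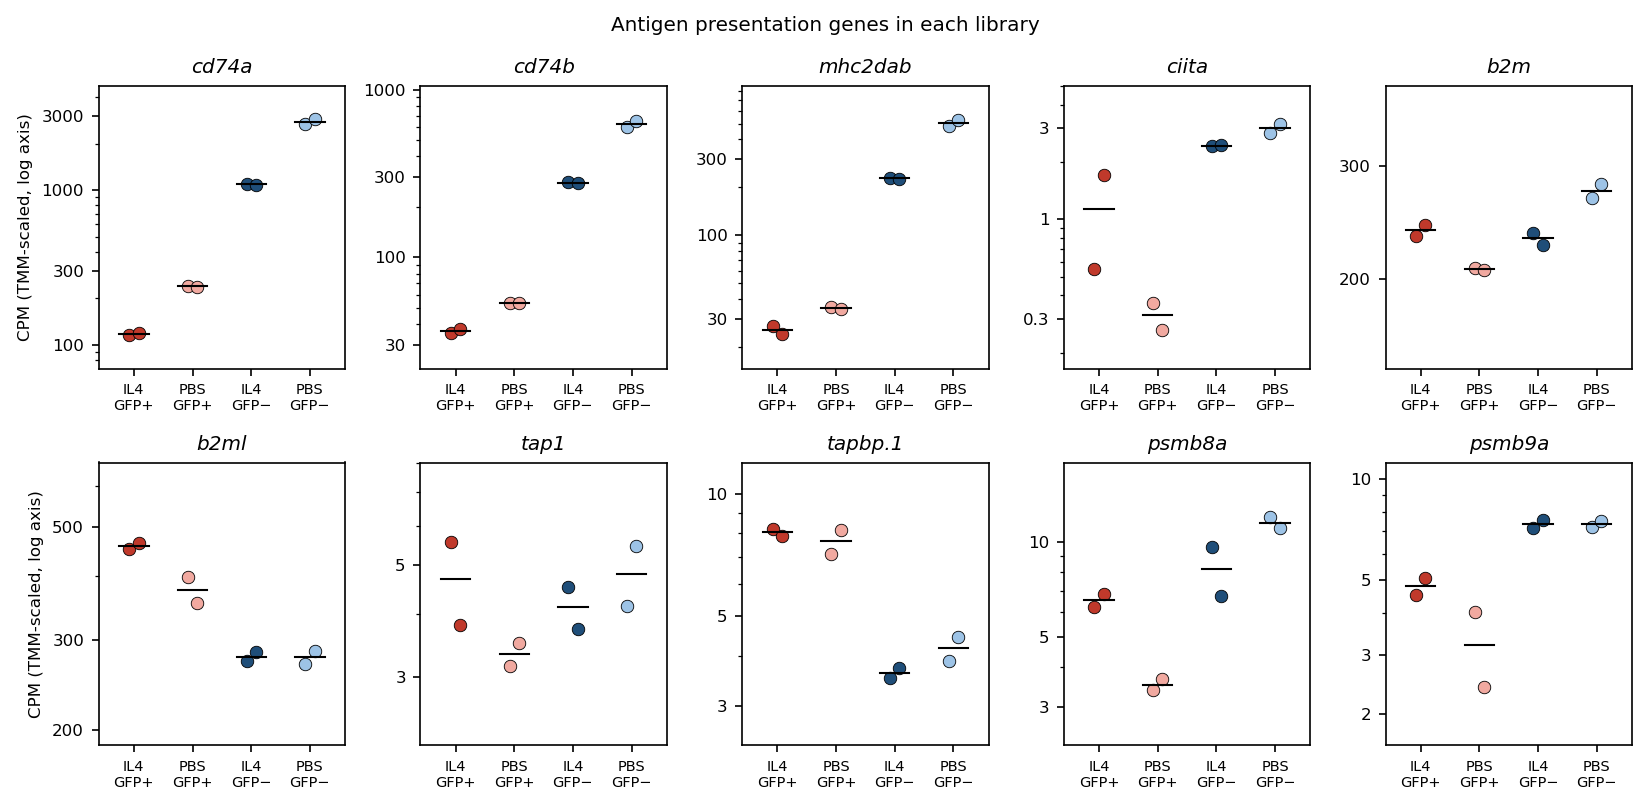
Level of each of the 10 antigen presentation genes in each library, as CPM scaled by TMM on a log axis; points are libraries, black lines are group means, and the 4 groups run from IL4 GFP-positive to PBS GFP-negative. The class II genes cd74a, cd74b and mhc2dab form 4 separate steps, lowest in IL4 GFP-positive and highest in PBS GFP-negative libraries.

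The first comparison asked how IL4 changed these genes in GFP-positive cells. The class II chain genes fell and several class I genes rose. Of 10 members 4 rose and 3 fell, beside 13.9% and 14.8% of the 20508 genes tested (28.7% in either direction). The members' median log2 fold change was 0.24, against 0.01 over all genes tested. The groups did not overlap for 9 of 10 members, as for 59.8% of all genes.

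The invariant chain genes led the fall. Counts of cd74a gave 115 and 119 CPM in IL4 GFP-positive libraries, against 240 and 237 CPM in PBS GFP-positive libraries. Both IL4 libraries lay far below both PBS libraries, a log2 fold change of -1.02 ± 0.04 (SE, n = 2 against 2, as for all fold changes here; edgeR adjusted p = 7.9e-13). The paralogue cd74b had 35.2 and 37.4 CPM after IL4 and 53.6 and 53.8 CPM after PBS, and fell by 0.56 ± 0.06 on the log2 scale (adjusted p = 9.25e-07).

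The class II beta chain gene mhc2dab had 26.98 and 23.9 CPM in IL4 GFP-positive libraries and 35.4 and 34.6 CPM in PBS GFP-positive libraries. Its groups did not overlap, and it fell by 0.46 ± 0.07 (adjusted p = 8.58e-05). The alpha chain gene mhc2daa, not a member, had 65.3 and 66.4 CPM against 126 and 120 CPM, a change of -0.90 ± 0.05 (adjusted p = 1.7e-11). The calls of these 4 genes held under every alternative scaling, test and left-out library.

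The proportion of the paralogues differed between the groups. The RPKM ratio of cd74a to cd74b was 3.82 and 3.72 in IL4 GFP-positive libraries, against 5.22 and 5.15 in PBS GFP-positive libraries. In GFP-negative cells it was 4.54 and 4.595 after IL4 and 5.19 and 5.16 after PBS. The IL4 libraries lay below the PBS libraries in both fractions, and no test was run on ratios.

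The transactivator ciita went the other way on few counts. It had 10 and 31 counts in IL4 GFP-positive libraries, or 0.546 and 1.71 CPM, against 8 and 5 counts in PBS GFP-positive libraries, or 0.366 and 0.261 CPM. The IL4 libraries differed from each other more than the lower of them differed from PBS. Its log2 fold change was 1.82 ± 0.58 (adjusted p = 0.0234). The call ended without IL4 GFP-positive replicate 2 (0.72), without PBS GFP-positive replicate 1 (2.03) or 2 (1.55), in limma voom (1.57) and in a fit of the compared groups alone (1.82).

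Among the class I members the peptide-cutting immune subunit psmb8a moved most. It had 6.23 and 6.85 CPM in IL4 GFP-positive libraries and 3.38 and 3.66 CPM in PBS GFP-positive libraries. The groups lay apart, a rise of 0.89 ± 0.23 (adjusted p = 0.00677). The call was lost when IL4 GFP-positive replicate 2 (0.76, adjusted p = 0.0591) or PBS GFP-positive replicate 1 (0.78, adjusted p = 0.0533) was left out. The genes that share exon bases with it had smaller values that did not pass, psmb13a at 0.44 ± 0.39 (adjusted p = 0.438) and tap2a at 0.59 ± 0.36 (adjusted p = 0.238).

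The light chain genes rose slightly. The gene b2ml had 451 and 464 CPM after IL4 and 398 and 354 CPM after PBS (0.28 ± 0.05, adjusted p = 0.000472), and b2m had 233 and 243 CPM after IL4 and 208 and 206 CPM after PBS (0.20 ± 0.05, adjusted p = 0.00497). Neither pair of groups overlapped. The b2m call ended without any 1 of the 4 GFP-positive libraries (0.11 to 0.18), and that of b2ml without PBS GFP-positive replicate 2 (0.14).

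The other 3 class I members did not pass. The partner subunit psmb9a had 4.53 and 5.08 CPM after IL4 and 4.02 and 2.41 CPM after PBS (0.57 ± 0.26, adjusted p = 0.116), and passed without PBS GFP-positive replicate 1 (0.94). The transporter gene tap1 had 5.57 and 3.81 CPM against 3.15 and 3.50 CPM (0.50 ± 0.28, adjusted p = 0.209). The tapasin gene tapbp.1, whose product bridges TAP and class I, had 8.19 and 7.90 CPM against 7.13 and 8.16 CPM, with overlapping groups (0.08 ± 0.22, adjusted p = 0.835).

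Relatives outside the set were read in GFP-positive cells for comparison. Over all genes tested 13.9% rose and 14.8% fell, the shares to set beside each list count in this paragraph. Of 13 other mhc1 genes tested, which encode class I heavy chains, 3 rose and 0 fell: mhc1uca by 0.59 ± 0.09, mhc1uba by 0.47 ± 0.11 and mhc1zba by 0.26 ± 0.04 (adjusted p = 6.32e-05, 0.00322 and 8.58e-05). The mhc1uba call ended without IL4 GFP-positive replicate 1 (0.34) or PBS GFP-positive replicate 2 (0.36). Of 12 tested genes of the remaining class II machinery, most of which encode lysosomal proteases and not MHC chains, 7 fell and 1 rose. The lysosomal protease gene ctss2.1 fell by 1.32 ± 0.10 and CTSD by 0.50 ± 0.05, while the co-stimulatory receptor gene cd40 rose by 1.25 ± 0.23 (adjusted p = 1.05e-08, 2.28e-07 and 0.000262). That list had 5 calls under library totals, in limma voom or in a fit of the compared groups alone. Of 20 tested genes of the remaining class I machinery, which share some mhc1 genes with the count above, 4 rose and 1 fell, with 2 calls without IL4 GFP-positive replicate 1 and 3 without PBS GFP-positive replicate 2. The 4 rises of that list were those of mhc1uba, mhc1zba, CALR and calr3b, and the fall was that of calr3a. No TAP, tapasin or proteasome gene of it was called. Of 4 other mhc2 genes tested 2 fell and 0 rose, mhc2daa as given above and mhc2d4b by 1.92 ± 0.23 (adjusted p = 3.39e-06).

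Of 23 tested proteasome genes outside the immune catalytic subunits 17 fell and 2 rose in GFP-positive cells after IL4, beside 14.8% and 13.9% of all genes tested. The list includes PSME1 and PSME2 of the proteasome activator PA28, so it is not purely constitutive. The core subunit gene PSMB1 was at -0.71 ± 0.05 (adjusted p = 2.53e-09). The subunits that psmb8a and psmb9a replace fell too, PSMB5 by 0.41 ± 0.06 and PSMB6 by 0.69 ± 0.08 (adjusted p = 2.19e-05 and 2.96e-06). The RPKM ratio of psmb8a to PSMB5 was 0.0288 and 0.0342 in IL4 GFP-positive libraries, against 0.0121 and 0.0134 in PBS GFP-positive libraries. The ratio of psmb9a to PSMB6 was 0.0457 and 0.0523 after IL4 and 0.0252 and 0.0152 after PBS. Neither pair of groups overlapped, and no test was run on ratios. The immune subunit PSMB10 against PSMB7 gave overlapping ratios of 0.112 and 0.146 after IL4 and 0.107 and 0.155 after PBS.

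**Figure D2:**
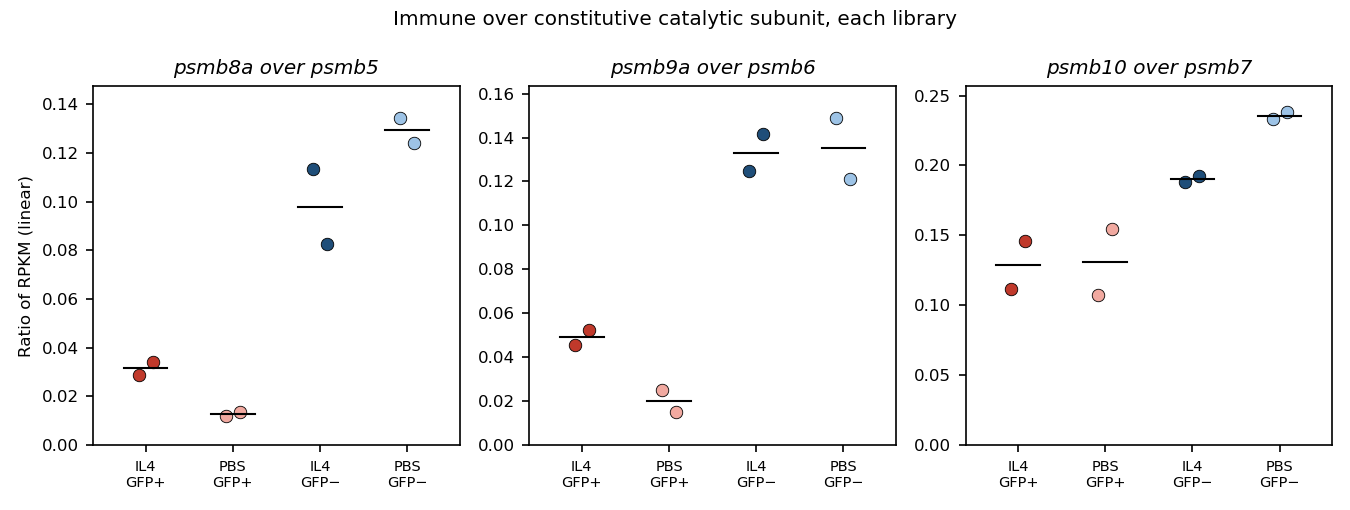
Ratio of the immune to the constitutive catalytic proteasome subunit in each library, as a ratio of RPKM on a linear axis from 0; points are libraries and lines are group means. For psmb8a over PSMB5 and psmb9a over PSMB6 both IL4 GFP-positive libraries lie above both PBS GFP-positive libraries, and GFP-negative libraries lie higher still.

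The second comparison asked the same of GFP-negative cells, in which markers of neurons, oligodendrocytes, microglia and endothelium were counted. Class II chain genes fell by more than 2-fold, and b2m was the 1 class I member that passed. Of 10 members 4 fell and 0 rose, beside 15.4% and 9.04% of all genes tested (24.5% in either direction). The median was -0.27, against -0.02 over all genes tested. The groups did not overlap for 7 of 10 members, as for 63.9% of all genes.

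The gene cd74a had 1097 and 1087 CPM in IL4 GFP-negative libraries, against 2679 and 2870 CPM in PBS GFP-negative libraries. All 3 class II chain genes had both IL4 libraries below both PBS libraries by a wide margin, and cd74a fell by 1.35 ± 0.04 (fold 2.54, adjusted p = 2.97e-15). The gene cd74b had 282 and 276 CPM after IL4 and 601 and 649 CPM after PBS (-1.16 ± 0.05, adjusted p = 7.57e-13). The beta chain gene mhc2dab had 229 and 225 CPM after IL4 and 483 and 527 CPM after PBS (-1.15 ± 0.06, adjusted p = 5.01e-12).

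The transactivator gene did not pass there. Counts of ciita were 57 and 56 in IL4 GFP-negative libraries, or 2.42 and 2.46 CPM, against 74 and 78 in PBS GFP-negative libraries, or 2.85 and 3.16 CPM. The groups lay apart but close, and the change of -0.30 ± 0.40 did not pass (adjusted p = 0.656).

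The light chain gene b2m had 236 and 227 CPM after IL4 and 267 and 281 CPM after PBS (-0.25 ± 0.05, adjusted p = 0.00089). The light chain paralogue b2ml had 273 and 284 CPM after IL4 and 269 and 286 CPM after PBS, with overlapping groups and a change of 0.003 ± 0.054 (adjusted p = 0.976). The subunit gene psmb8a had 9.62 and 6.73 CPM after IL4 and 11.96 and 11.02 CPM after PBS, at -0.49 ± 0.20 (adjusted p = 0.0909), and passed in limma voom (-0.51) and in a fit of the compared groups alone (-0.47). The values of tap1 (-0.22 ± 0.27), tapbp.1 (-0.20 ± 0.23) and psmb9a (0.004 ± 0.231) did not pass (adjusted p = 0.63, 0.599 and 0.993).

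Other MHC genes were read in GFP-negative cells too. Over all genes tested 15.4% fell and 9.04% rose, the shares to set beside each list count in this paragraph. The alpha chain gene mhc2daa had 783 and 800 CPM after IL4 and 1918 and 1881 CPM after PBS (-1.26 ± 0.04, adjusted p = 7.93e-15). The class II gene mhc2d4b of chromosome 4 had 17.1 and 17.5 CPM against 62.8 in each PBS library (-1.86 ± 0.12, adjusted p = 4.94e-10). Of 4 other mhc2 genes tested 3 fell and 0 rose. Of 20 tested genes of the remaining class I machinery 6 fell and 0 rose. They were mhc1uba and mhc1zba, which are counted again among the mhc1 genes below, and calr3a, calr3b, CANX and PDIA3. No TAP, tapasin or proteasome gene of that list was called. Of 12 tested genes of the remaining class II machinery 8 fell and 0 rose. Most of these 12 encode lysosomal proteases, so the count is not one of MHC chains. The protease gene CTSC was at -1.73 ± 0.10 and the asparaginyl endopeptidase gene LGMN at -1.18 ± 0.07 (adjusted p = 4.45e-11 and 3.95e-11). Of 13 other mhc1 genes 2 fell, mhc1uba at -0.50 ± 0.10 and mhc1zba at -0.43 ± 0.04 (adjusted p = 0.00094 and 1.67e-07), and 1 rose, or 5 calls in all in a fit of the compared groups alone. Of 23 proteasome genes 4 fell and 0 rose, a count that was 0, 2 and 2 without IL4 GFP-negative replicate 1, IL4 GFP-negative replicate 2 and PBS GFP-negative replicate 2.

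**Figure D3:**
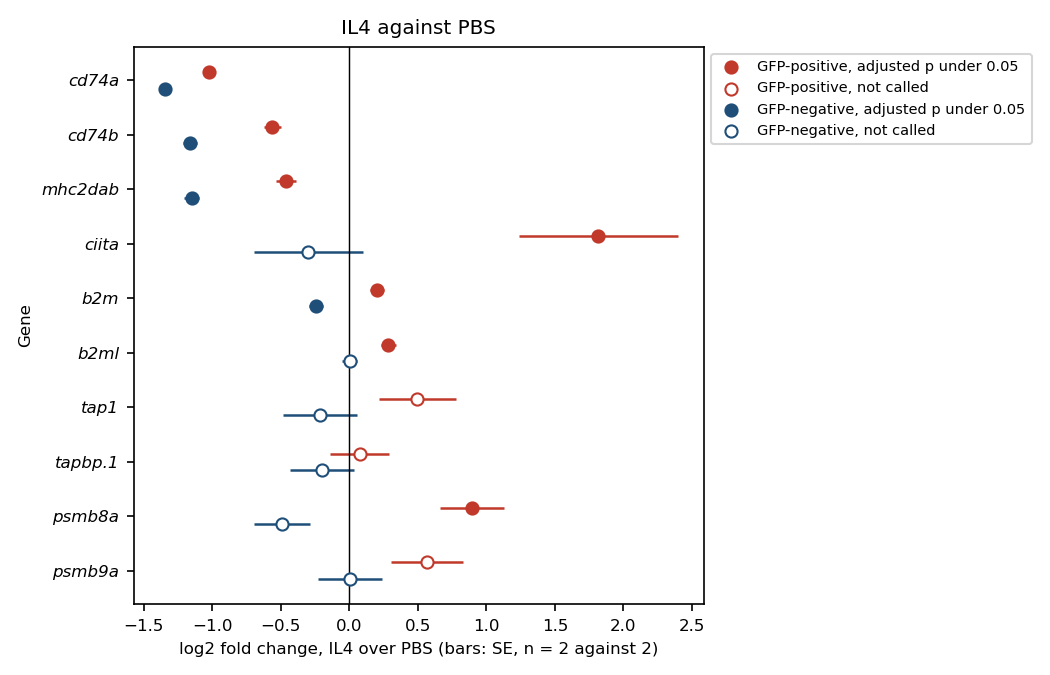
Log2 fold change of IL4 over PBS for the 10 genes in GFP-positive (red) and GFP-negative (blue) cells, with SE bars; filled points passed at an adjusted p under 0.05. The class II chain genes lie left of 0 in both fractions, while psmb8a lies at 0.89 in GFP-positive and -0.49 in GFP-negative cells.

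Microglial markers fell in the same comparisons as the class II chain genes. Over all genes tested 14.8% fell after IL4 in GFP-positive and 15.4% in GFP-negative cells. Of 27 tested markers 20 fell and 0 rose in GFP-positive cells after IL4, with a median log2 fold change of -1.24, and 26 fell and 0 rose in GFP-negative cells, with a median of -2.03. The summed level of the 28 markers was 248 to 253 CPM in IL4 GFP-positive, 715 to 730 in PBS GFP-positive, 1721 to 1768 in IL4 GFP-negative and 6570 to 6811 in PBS GFP-negative libraries. Of the list, 1 gene, a copy of MFAP4 (ENSDARG00000038683), had 0 counts in PBS GFP-positive libraries, and none had 0 counts in both libraries of another group. The list shares ctss2.2 and IRF8 with the lists of class II machinery and MHC regulators, and apoeb supplied 55.3% of its summed level.

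The log2 fold changes of the class II chain genes were nearer to 0 than those of most of these markers. In GFP-negative cells 20 of 27 markers had a lower log2 fold change than cd74a and 21 of 27 a lower one than cd74b or mhc2dab. In GFP-positive cells the counts were 17, 21 and 21. The apolipoprotein gene apoeb was at -2.31 ± 0.04 and the receptor gene csf1ra at -2.18 ± 0.21 in GFP-negative cells (adjusted p = 2.97e-18 and 1.04e-07). The pan-leukocyte gene ptprc was at -0.23 ± 0.10 there (adjusted p = 0.092), and passed in limma voom and in a fit of the compared groups alone.

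Within a library the ratio of every member, of class II and of class I, to summed microglial counts was higher after IL4. The marker sum itself fell, so a higher ratio does not show that a member rose. On the log2 scale cd74a over the markers was -0.69 and -0.66 in IL4 GFP-negative libraries, against -1.29 and -1.25 in PBS GFP-negative libraries, a difference of 0.60. In GFP-positive cells it was -1.13 and -1.05 after IL4 and -1.60 and -1.59 after PBS, a difference of 0.51. For mhc2dab the differences were 0.79 (GFP-negative) and 1.07 (GFP-positive). Every class I member had larger differences than the class II chain genes, with b2m at 1.69 (GFP-negative) and 1.73 (GFP-positive) and b2ml at 1.94 and 1.82. With apoeb left out of the sum those of cd74a were 0.21 and 0.11 and those of mhc2dab 0.41 and 0.67. The part of these markers in the class II falls was not tested.

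Markers of other cell types were read too. After IL4 13.9% of all genes tested rose and 14.8% fell in GFP-positive cells, and 9.04% rose and 15.4% fell in GFP-negative cells. Summed lymphocyte markers (14 genes) stood at 26.1 to 29.1 CPM in IL4 GFP-positive, 13.1 to 17.7 in PBS GFP-positive, 244 to 251 in IL4 GFP-negative and 227 to 231 in PBS GFP-negative libraries. In GFP-positive libraries cd79b had 0 counts after IL4, and 1 gene of the list had 0 counts after PBS. After IL4, 12 of 13 tested lymphocyte markers were lower in GFP-positive than in GFP-negative cells, beside 34.3% of all genes tested. The other 1 was higher (2.41), so the GFP-positive sum includes a gene unlike the rest. Of 13 tested lymphocyte markers 4 rose and 0 fell in GFP-positive cells after IL4, and 2 rose and 1 fell in GFP-negative cells. The count in GFP-positive cells was 2 in limma voom or in a fit of the compared groups alone. In GFP-negative cells it was 6 in a fit of the compared groups alone, and 1 without IL4 GFP-negative replicate 1 or 2 or PBS GFP-negative replicate 2. The 6 dendritic cell markers summed to 9.83 to 13.6, 12.7 to 15.5, 78.6 to 79.7 and 72.3 to 74.1 CPM in IL4 GFP-positive, PBS GFP-positive, IL4 GFP-negative and PBS GFP-negative libraries, with none at 0 in any group. Summed endothelial markers were 61.9 to 64.1 CPM in IL4 GFP-negative and 192 to 199 CPM in PBS GFP-negative libraries, and 10 of 11 fell. Neuron markers (12 genes) summed to 2866 to 2871 CPM in IL4 GFP-positive and 2252 to 2305 CPM in PBS GFP-positive libraries, and 9 rose and 0 fell there, while 7 rose and 0 fell in GFP-negative cells. Radial glia markers (13 genes) summed to 37630 to 37760 CPM in IL4 GFP-positive and 49090 to 50140 CPM in PBS GFP-positive libraries, and 10 fell and 0 rose. Of 9 oligodendrocyte markers 7 fell and 0 rose in GFP-positive cells, and 4 rose and 2 fell in GFP-negative cells, where they summed to 19750 to 19940 CPM after IL4 and 15110 to 15320 CPM after PBS. Between the fractions, 11 of 12 neuron markers were lower and 1 higher in GFP-positive cells, after IL4 and after PBS. Likewise 11 of 13 radial glia markers were higher and 1 lower there, and 8 of 9 oligodendrocyte markers lower and 1 higher. Among all genes tested 34.3% were lower and 32.4% higher after IL4, and 39.1% and 32.6% after PBS. Each of these sums therefore includes a gene unlike the rest. The part of these cell types in the members' values was not tested.

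**Figure D4:**
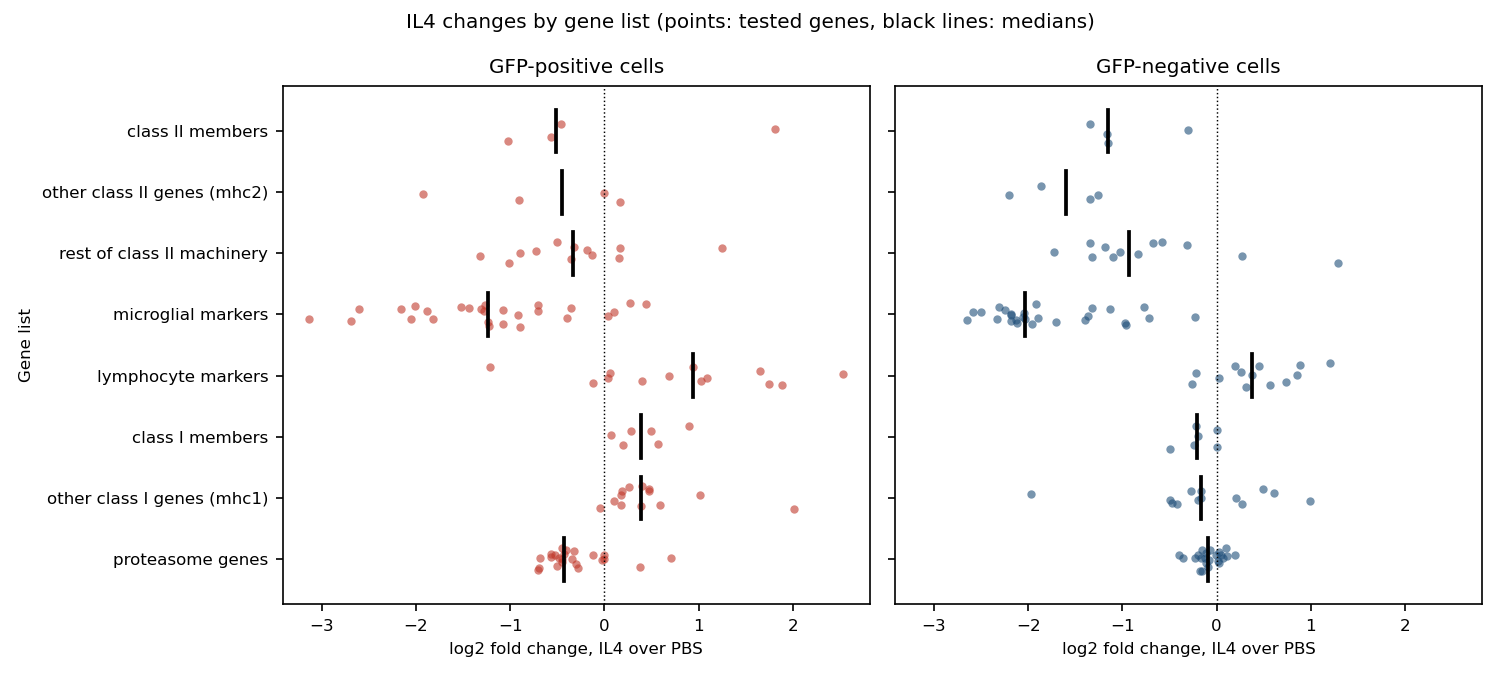
Log2 fold change of IL4 over PBS for every tested gene of 8 lists in GFP-positive (left) and GFP-negative (right) cells; points are genes and black lines are list medians. In GFP-negative cells the class II members have a median of -1.16 and the microglial markers one of -2.03, and in GFP-positive cells the class I members lie at 0.39 and the proteasome genes at -0.43.

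Regulators of MHC transcription were read beside ciita. After IL4 13.9% of all genes tested rose and 14.8% fell in GFP-positive cells, and 9.04% rose and 15.4% fell in GFP-negative cells. Of 21 tested regulators, 8 rose and 0 fell in GFP-positive cells after IL4. The list pools activators with inhibitors, so the count gives no direction of MHC transcription. The inhibitor gene socs1b rose on few counts, 11 and 9 against 3 and 0 (2.82 ± 0.94, adjusted p = 0.0285). So did irf4b, with 15 and 14 against 7 and 3 (1.69 ± 0.51, adjusted p = 0.0165), a call lost in 5 of 15 alternatives. The coactivator gene CREBBP rose by 0.73 ± 0.12 in GFP-positive and by 0.56 ± 0.11 in GFP-negative cells (adjusted p = 0.000117 and 0.000777). Without IL4 GFP-positive replicate 1 or PBS GFP-positive replicate 2, 5 rose and 0 fell, and without IL4 GFP-positive replicate 2, 4 rose and 1 fell. In GFP-negative cells 5 rose and 1 fell, the myeloid factor gene IRF8 (-0.77 ± 0.19, adjusted p = 0.00488), a call lost when IL4 GFP-negative replicate 1 (-0.62) or PBS GFP-negative replicate 2 (-0.64) was left out. There 1 rose and 0 fell without IL4 GFP-negative replicate 1, 2 rose and 1 fell without IL4 GFP-negative replicate 2 or PBS GFP-negative replicate 1, and 3 rose and 0 fell without PBS GFP-negative replicate 2. Of 16 tested genes of IL4 and interferon-gamma signalling 5 rose and 3 fell in GFP-positive cells, a count of 5 without IL4 GFP-positive replicate 2, and 0 rose and 8 fell in GFP-negative cells. The IL4 receptor gene il4r.1 was at 0.15 ± 0.14 in GFP-positive and -1.73 ± 0.14 in GFP-negative cells (adjusted p = 0.466 and 5.85e-09).

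The third comparison tested whether the IL4 change itself differed between the fractions. It was higher in GFP-positive than in GFP-negative cells for 7 of 10 members and lower for 0, beside 11.5% and 7.26% of all genes tested (18.7% in either direction). The members' median difference was 0.58, against 0.07 over all genes tested, and all 10 values were above 0. The class II chain members fell less in GFP-positive cells, by a difference of 0.32 ± 0.06 for cd74a, 0.60 ± 0.08 for cd74b and 0.69 ± 0.09 for mhc2dab (adjusted p = 0.00049, 1.93e-05 and 2.24e-05). This did not extend to the class II gene mhc2d4b, not a member. It fell by 1.92 ± 0.23 in GFP-positive and by 1.86 ± 0.12 in GFP-negative cells. The largest difference among the class I members was that of psmb8a (1.38 ± 0.31, adjusted p = 0.00353), followed among those called by b2m (0.45 ± 0.07, adjusted p = 0.000141) and b2ml (0.28 ± 0.08, adjusted p = 0.0138). For ciita it was 2.11 ± 0.70 (adjusted p = 0.0418).

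The microglial markers went the same way in this comparison. Of 27 tested, 11 were higher and 1 lower, with a median difference of 0.65, and 9, 12 and 16 of the 27 lay below cd74a, cd74b and mhc2dab. The count of 12 calls was 6 in limma voom or without IL4 GFP-positive replicate 1, and 7 without IL4 GFP-positive replicate 2 or PBS GFP-negative replicate 2. The part of these markers in the members' differences was not tested.

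Of these calls those of ciita and b2ml were the least stable. The ciita call ended in DESeq2, in limma voom, in a fit that blocks on replicate number (2.05, adjusted p = 0.0577) and without any 1 of IL4 GFP-positive replicate 2 (1.001), the 2 PBS GFP-positive and the 4 GFP-negative libraries (1.83 to 2.31). The b2ml call ended in DESeq2, under RLE factors (0.21) and without IL4 GFP-positive replicate 1 (0.23) or 2 (0.18), PBS GFP-positive replicate 2 (0.12), IL4 GFP-negative replicate 1 (0.26) or PBS GFP-negative replicate 2 (0.24). The values of tap1 (0.71 ± 0.39), psmb9a (0.57 ± 0.35) and tapbp.1 (0.28 ± 0.32) did not pass (adjusted p = 0.23, 0.294 and 0.605).

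The sort itself gave a further pair of comparisons, GFP-positive over GFP-negative. After PBS 7 of 10 members were lower and 2 higher in GFP-positive cells, beside 39.1% and 32.6% of all genes tested (71.7% in either direction). The members' median was -1.44, against -0.14 over all genes, and the groups did not overlap for 10 of 10 members, as for 85.3% of all genes. After IL4 5 were lower and 2 higher, beside 34.3% and 32.4% (66.6% in either direction), with a median of -0.47 against -0.05, and the groups did not overlap for 7 of 10 members, as for 83.6% of all genes. Library totals in place of TMM shift the median of all genes by -0.48 after PBS and -0.44 after IL4, so small differences between the fractions depend on the scaling.

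The class II genes were lower in GFP-positive cells by a wide margin. After IL4 the log2 fold changes were -3.22 ± 0.04 for cd74a, -2.94 ± 0.06 for cd74b and -3.16 ± 0.07 for mhc2dab, and after PBS they were -3.54 ± 0.04, -3.54 ± 0.06 and -3.85 ± 0.07 (adjusted p = 4.34e-19 at most after IL4 and 1.03e-20 at most after PBS). The alpha chain gene mhc2daa was at -3.59 ± 0.05 after IL4 and -3.95 ± 0.05 after PBS, and the activation marker gene cd83 at -3.83 ± 0.09 and -4.30 ± 0.09. These sizes lie among those of the microglial markers, whose medians were -3.35 after IL4 and -3.77 after PBS. On the log2 scale the ratio of cd74a to summed microglial counts was lower in GFP-positive than in GFP-negative libraries, by a difference of -0.42 after IL4 and -0.33 after PBS, and by -0.20 and -0.09 with apoeb left out. For mhc2dab these differences were -0.36 and -0.64, and -0.14 and -0.40 without apoeb. Those of cd74b were -0.14 and -0.33, and 0.08 and -0.10 without apoeb. The ratio of ciita, on few counts, was higher after IL4 (1.47) and near equal after PBS (-0.07). Whether the class II counts of GFP-positive libraries come from microglial RNA was not tested.

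The transactivator gene ciita was lower in GFP-positive cells, at -1.11 ± 0.44 after IL4 and -3.22 ± 0.52 after PBS (adjusted p = 0.0339 and 1.5e-05). The call after IL4 ended in DESeq2, without IL4 GFP-positive replicate 1 (-0.50), and without any 1 of the 4 GFP-negative libraries (-1.12 to -1.095). Without IL4 GFP-positive replicate 2 the value was -2.14.

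The class I members split between the fractions. The tapasin gene tapbp.1 was higher in GFP-positive cells, by 1.15 ± 0.23 after IL4 (8.19 and 7.90 CPM, against 3.52 and 3.74 CPM in GFP-negative libraries) and by 0.87 ± 0.22 after PBS (7.13 and 8.16 CPM, against 3.88 and 4.46 CPM; adjusted p = 0.000165 and 0.00158). Its neighbour tapbp.2, which shares exon bases with it, was higher too, by 1.103 ± 0.157 and 0.72 ± 0.15. The light chain paralogue b2ml was higher by 0.72 ± 0.05 after IL4 and 0.44 ± 0.05 after PBS (adjusted p = 3.52e-10 and 4.78e-07). Under library totals the values after PBS were 0.39 for tapbp.1 and 0.24 for tapbp.2, neither of them called, and -0.05 for b2ml.

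The gene b2m did not differ beyond its error after IL4 (0.04 ± 0.05, adjusted p = 0.477) and was lower in GFP-positive cells after PBS (-0.40 ± 0.05, adjusted p = 4.87e-07), and under library totals the value after IL4 was -0.40 and passed. The RPKM ratio of b2m to b2ml was 1.43 ± 0.0136 in IL4 GFP-positive, 1.52 ± 0.116 in PBS GFP-positive, 2.29 ± 0.134 in IL4 GFP-negative and 2.72 ± 0.0205 in PBS GFP-negative libraries. Every GFP-positive library lay below every GFP-negative library in this ratio, which no scaling factor enters.

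After PBS the immune proteasome subunit genes psmb8a and psmb9a had lower levels in GFP-positive cells, at -1.71 ± 0.22 and -1.18 ± 0.25 (adjusted p = 1.03e-06 and 0.000313). The gene psmb13a, which shares exon bases with psmb8a, was lower by more, at -2.38 ± 0.32 after IL4 and -2.40 ± 0.33 after PBS (adjusted p = 1.58e-06 and 1.98e-06). The immune subunit gene PSMB10 was higher in GFP-positive cells, at 0.59 ± 0.14 after IL4 and 0.52 ± 0.14 after PBS (adjusted p = 0.00132 and 0.00272), and under library totals neither call held (0.15 and 0.03). After IL4 psmb8a was at -0.32 ± 0.22 and did not pass (adjusted p = 0.194), although it did under library totals (-0.76), and psmb9a was at -0.61 ± 0.24 (adjusted p = 0.0327). The psmb9a call after IL4 ended in DESeq2 and without any 1 of the 4 IL4 libraries (-0.69 to -0.52). The constitutive subunit genes went the other way, PSMB5 by 1.32 ± 0.06 after IL4 and 1.64 ± 0.06 after PBS. The RPKM ratio of psmb8a to PSMB5 was 0.0315 ± 0.00384 in GFP-positive against 0.0979 ± 0.0217 in GFP-negative cells after IL4, and 0.0127 ± 0.000899 against 0.129 ± 0.00717 after PBS. The transporter gene tap1 did not pass after IL4 (0.18 ± 0.28, adjusted p = 0.58) or after PBS (-0.53 ± 0.28, adjusted p = 0.0921), and under library totals it passed after PBS (-1.01).

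**Figure D5:**
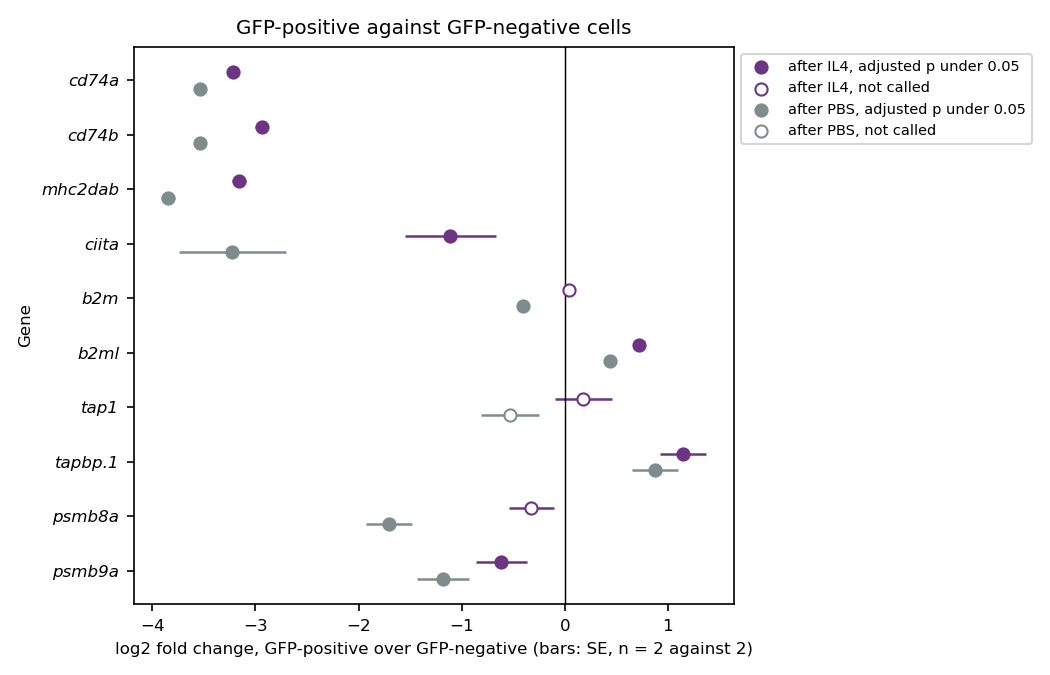
Log2 fold change of GFP-positive over GFP-negative cells for the 10 genes after IL4 (purple) and after PBS (grey), with SE bars; filled points passed at an adjusted p under 0.05. The class II chain genes lie near -3 to -4, while b2ml and tapbp.1 lie right of 0 under TMM scaling.

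Genes of like pattern were sought for the member of each class with the highest mean CPM, by the distance between centred log2 CPM profiles over the 8 libraries. In class I that was b2ml, whose exons are longer than those of b2m (3613 against 1314 bases), while b2m was the higher of these genes in RPKM in every group. Nearest to cd74a were krt18b (distance 0.311), klf2b (0.356), nkl.2 (0.425), ms4a17a.6 (0.460) and the class II protease gene ctss2.1 (0.463). The keratin gene krt18b averaged 15.1, 33.8, 158 and 434 CPM in IL4 GFP-positive, PBS GFP-positive, IL4 GFP-negative and PBS GFP-negative libraries. Nearest to b2ml were ING4 (0.128), HMGN2 (0.139), VBP1 (0.159), PUF60 (0.169) and prnprs3 (0.174), none of them on the lists used here. The chromatin protein gene HMGN2 averaged 676, 587, 437 and 420 CPM in the same order of groups. The 8 libraries share 4 groups, so these likenesses rest on few independent points.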

How the data were processed

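RNA sequencing of 8 libraries was deposited as read counts per gene, made by the authors with featureCounts on GRCz10 (danRer10), per the submitters' processing notes. Versions, the aligner, strandedness and the treatment of multi-mapping reads are not given in the sources used here. The deposited table also holds each gene's exon length in bases, and all 8 count columns were matched to a library by name. Symbols came from a table of gene identifiers.

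The test was that of edgeR 4.0.16 (R 4.3.3): TMM factors, filterByExpr (minimum count 10; 20508 genes kept, 10880 removed), 1 robust quasi-likelihood fit of 4 group means, and Benjamini-Hochberg adjustment over all genes, with a threshold of 0.05. SE is the log2 fold change divided by the square root of F. CPM uses TMM-scaled sizes, and RPKM divides it by exon length. The 5 comparisons share this fit (4 residual degrees of freedom). The fit was also run on simulated counts for IL4 against PBS in GFP-positive cells (19996 genes run). There 96 genes were changed by a log2 size of 1 and 98 by 2, in IL4 GFP-positive libraries alone. Of these 68.8% and 89.8% were recovered, with 9 false calls. In the data 28.7% of genes were called in this comparison, far more than were changed in the simulation, so recovery there may differ. Alternatives used DESeq2 1.42.0, limma 3.58.1, other scalings, no filter, a replicate block, fewer groups and each library left out; a fit without 1 library assumes that its lone partner varies like the other groups. Members and lists were chosen with earlier results of these data known, and every mhc1 and mhc2 gene was added after values were seen. All members are named in each comparison. Of each wider list the text names some of the up to 6 genes with the largest change among those past the threshold; genes named for another reason (partners in a ratio, genes sharing exons, marker genes and relatives set beside a member) were chosen after their values were seen. Like genes are the 5 nearest tested genes with a symbol and at least 1 CPM, with 0.5 added before log2. Depth was 19242851 to 26582271 counts, and no pair of replicates was within counting error (chi-square over genes, 2.73 to 4.85 per gene). Values of some genes on the wider lists are not reported here.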

Additional observations from a re-analysis of the deposited data

Results flagged for a closer look

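The IL4 change differed between GFP-positive and GFP-negative cells, by the interaction test in edgeR, for 7 of the 10 members, beside 18.7% of all genes tested. The differences (GFP-positive minus GFP-negative, log2) were 0.32 for cd74a, 0.60 for cd74b, 0.69 for mhc2dab, 2.11 for ciita, 0.45 for b2m, 0.28 for b2ml and 1.38 for psmb8a. Of 14 alternatives 10 lost the call of ciita and 7 that of b2ml. The microglial markers had a median difference of 0.65, with 11 of 27 higher and 1 lower. Of 13 other mhc1 genes tested 3 were called higher and 0 lower for this difference, and of 4 other mhc2 genes 1 and 0. Values lay below 0 for 3 of the mhc1 and 1 of the mhc2 genes. Over all genes tested 11.5% were called higher. The relatives called were mhc2daa (0.36), mhc1uba (0.97), mhc1uca (0.76) and mhc1zba (0.69). For b2m, mhc1uba and mhc1zba the 2 changes passed in opposite directions, higher in GFP-positive and lower in GFP-negative cells. The rise in GFP-positive cells lost its call in 4 of 15 alternatives for b2m and in 2 of 15 for mhc1uba. Opposite calls were not limited to MHC genes on the lists used here, and their share over all genes tested was not counted. They also occurred for calr3b (0.35 and -0.63), stat6 (0.53 and -1.11), il13ra1 (0.36 and -1.16) and SOCS3 (ENSDARG00000026611, 0.39 and -0.78).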

How the results depend on the processing

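Of 740 alternative values for the members, 684 kept direction and side of the threshold, 41 lost the call, 5 gained one and 10 changed sign. The calls of cd74a, cd74b and mhc2dab held in every comparison and alternative. Differences between replicates 1 and 2 were hardly correlated between groups over all tested genes (correlations -0.0206 to 0.0105). The labels state no pairing, and such values cannot tell whether libraries of the 2 fractions share fish. With the replicate block 5679, 4817, 14512, 13488 and 3598 genes were called for IL4 in GFP-positive cells, IL4 in GFP-negative cells, the fractions after PBS, the fractions after IL4 and the difference, against 5889, 5016, 14713, 13666 and 3843, and among members only the ciita difference lost its call (2.05). Leaving out 1 library gave 4741 to 5647, 3184 to 5626, 13201 to 15055, 12034 to 14159 and 2515 to 3898 genes. It gave 4 to 7 member calls for IL4 in GFP-positive cells, 4 without replicate 2 of IL4 GFP-positive or of PBS GFP-positive.

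Signs changed for these values. For IL4 in GFP-positive cells tapbp.1 was at -0.006 and -0.077 without replicate 1 of IL4 or PBS (-0.077 to 0.112 over left-out libraries). For IL4 in GFP-negative cells, without IL4 replicate 2 and PBS replicate 1, b2ml was at -0.0262 and -0.0438 (range -0.0438 to 0.0476) and psmb9a at -0.0356 and -0.0292 (range -0.0356 to 0.0396); PSMB6 was at -0.0442 and -0.159 without replicate 1 of IL4 or PBS (range -0.159 to 0.201). Between fractions after IL4 tap1 was at -0.107 without IL4 GFP-positive replicate 1 (range -0.107 to 0.436). The cause was not tested. Under library totals, which shift the median of all genes by -0.48 after PBS and -0.44 after IL4, b2ml after PBS was at -0.0479 (0.44 with TMM), and b2m and tap1 after IL4 at -0.40, which passed, and -0.26.

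Higher calls made up 48.3% for IL4 in GFP-positive cells (59.1% under library totals, 40.8% under RLE factors, 40.0% in DESeq2), 36.9% in GFP-negative cells (30.9% to 44.5% over all alternatives), 45.5% and 48.6% between fractions after PBS and IL4 (28.2% and 30.6%), and 61.3% for the difference (67.8% under library totals, 51.2% under RLE factors, 51.1% in DESeq2). Counts of ciita were 5 to 78 a library, the fewest of any member, and 10 and 31 in the IL4 GFP-positive pair.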
